A study of Homo sapiens with 16 samples.

Results

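The transcripts of 10 enzymes that make, recycle or degrade deoxynucleotides were followed in NOMO-1 cells, an established human line from acute monocytic leukaemia. The enzymes are RRM1, RRM2, RRM2B, TYMS, TK1, TK2, DCK, DTYMK, DUT and SAMHD1. They were chosen by name as the core enzymes of the pathway, with earlier results of these data known. Each was found as 1 entry among the 26830 entries of the deposited table. Poly(A) RNA of 16 libraries in 5 groups was sequenced. Each value is a TPM, a transcript abundance corrected for length with a nearly equal total in all libraries. Levels of different genes can thus be set side by side within a library. Between libraries a TPM is a share of the total, so differences also depend on the scaling. For 3 groups, cells were cultured for 72 h in DMSO as the solvent control (n = 4), in 100 nM of the compound CS1 (n = 3) or in 500 nM of the compound CS2 (n = 3). Both compounds are presented by the series as inhibitors of FTO, an enzyme that removes methyl groups from adenosines in RNA. In the other groups, cells infected by lentivirus with the FTO hairpin shFTO (n = 3) or the control hairpin shNS (n = 3) were kept as stable cells after 1 week in 1 µg/ml puromycin. All groups come from this single line, and the series text calls the replicates biological. CS1 is known as bisantrene and CS2 as brequinar from the study's publication, an identity that the labels do not give and that was not checked here. Brequinar is also a known inhibitor of DHODH, an enzyme of pyrimidine synthesis.

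New deoxynucleotides are made in the cytosol by ribonucleotide reductase, which takes the hydroxyl group off the sugar of ribonucleoside diphosphates. The enzyme joins a large catalytic subunit, RRM1, to a small radical-bearing subunit, which is RRM2 in cycling cells and RRM2B in resting or damaged cells. Thymidine nucleotides need a further route in which DUT turns dUTP into dUMP, TYMS methylates dUMP to dTMP and DTYMK phosphorylates dTMP. Salvage kinases, TK1 and DCK in the cytosol and TK2 in mitochondria, phosphorylate deoxynucleosides taken up from outside or released from DNA. SAMHD1 degrades finished deoxynucleoside triphosphates and is abundant in resting myeloid cells.

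FTO averaged 31.6 TPM ± 1.03 (SD, n = 3) in the shNS libraries and 7.99 TPM ± 0.445 (SD, n = 3) in the shFTO libraries, so the hairpin libraries carried the labelled change. Each library had 18675 to 19358 entries above 0, and replicates correlated across genes with r of at least 0.9877. Read counts cannot be had from TPM, so depth and counting error are unknown. The median of all 14951 genes tested was itself shifted by 0.09 in CS1 and 0.20 in CS2 against DMSO, and by 0.07 in shFTO against shNS, on the log2(TPM + 1) scale used for all differences. This scale understates the change of genes with a low TPM. Of 10 markers of monocytic leukaemia lines, all had TPM above 0 in every group, although CD14 and MPO averaged under 1 TPM in each. Their summed level ranged from 466.5 to 479.1 TPM in DMSO, from 920.2 to 987 TPM in CS1, from 1159 to 1212 TPM in CS2, from 701.2 to 720.7 TPM in shNS and from 2955 to 3531 TPM in shFTO. Most of the shFTO rise was LYZ, with means of 162.8 TPM in shNS and 2226 TPM in shFTO, and CD68 (217.5 and 538.8 TPM), while FCN1 (40.66 and 31.52 TPM) and SPI1 (129.5 and 117.9 TPM) were lower. The part of this marker shift in the results was not tested. The T cell marker CD3E and the erythroid marker HBA1 were at 0 in all groups, while the summed lymphocyte list, between 244 and 496.6 TPM, was nearly all NKG7. In RNA from whole cultures, fewer cells in a given state and less RNA per cell cannot be told apart. The annotation also holds pseudogenes of RRM2, TYMS and DUT, none of which is an entry of the table, so the share of their reads in these values is unknown.

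Among the 10 enzymes, RRM2 and TYMS had the most transcript in the control cells, and SAMHD1 and TK2 the least. In DMSO the levels ran from RRM2 at 504 TPM ± 20.9 (SD, n = 4) and TYMS at 482 TPM ± 8.46, through DUT at 248 TPM ± 2.47, RRM1 at 183 TPM ± 6.87, TK1 at 85.2 TPM ± 1.57, DCK at 62.8 TPM ± 1.68, DTYMK at 40.3 TPM ± 0.817 and RRM2B at 19.8 TPM ± 2.1, to SAMHD1 at 5.32 TPM ± 0.308 and TK2 at 4.88 TPM ± 0.246. Neighbours in this order did not overlap, except RRM2 with TYMS and SAMHD1 with TK2. The 10 enzymes together took 1635 TPM ± 33.8 in DMSO (SD, n = 4), 2218 TPM ± 139 in CS1 and 2885 TPM ± 25.2 in CS2 (SD, n = 3 each). In the hairpin libraries the sum was 1171 TPM ± 31.4 in shNS and 860.4 TPM ± 106 in shFTO (SD, n = 3 each). RRM2 and TYMS alone made up 60.3% of the sum in DMSO, 67.3% in CS1, 64.0% in CS2, 52.4% in shNS and 52.6% in shFTO. RRM2 stood at the top in DMSO, CS1 and CS2, whereas TYMS led in shNS without overlap and in shFTO with overlapping ranges. The DMSO and shNS libraries differ in culture history as well as in treatment, so treated groups are tested against the matched control only, and values set side by side over all 16 libraries are descriptions.

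**Figure D1:**
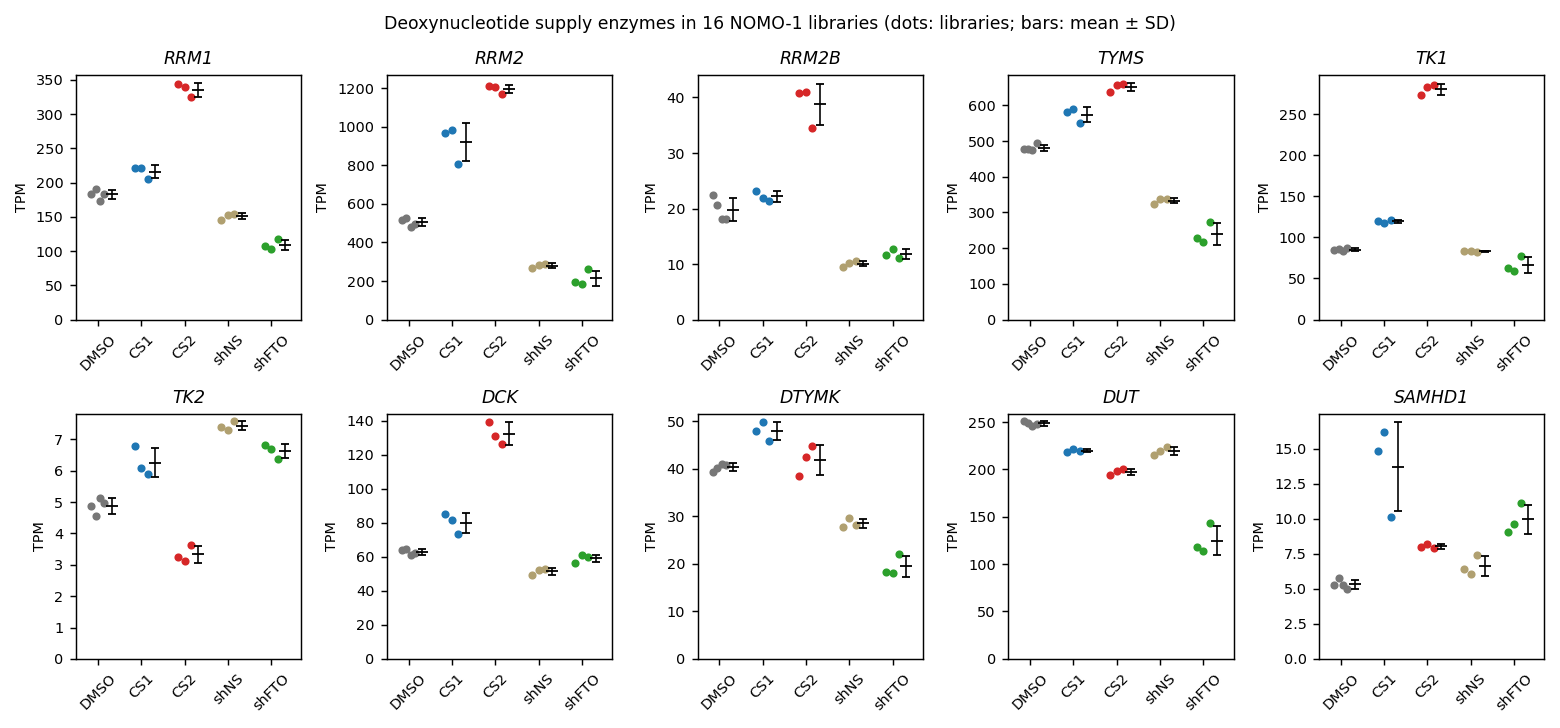
TPM of each enzyme (vertical axis, from 0, with its own scale per gene) in the 16 libraries by group, with dots for libraries and bars for mean ± SD. RRM2 and TK1 reached their highest values in the 3 CS2 libraries, while DUT was lower in CS1, CS2 and shFTO than in the matched controls.

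CS1 at 100 nM raised most of these transcripts on the deposited scale. Tested with limma across all genes, 8 of the 10 were higher, 1 was lower (DUT) and RRM2B did not pass an adjusted p of 0.05. Of all genes tested, 51.8% passed in this comparison, 37.5% higher and 14.3% lower. The groups did not overlap for 9 of the 10 enzymes, against 53.9% of all genes. The number of higher enzymes depended on scale: after the libraries were brought to a common median it was 4 (RRM2, TK1, DCK and SAMHD1), and among all genes the split moved from 5605 higher and 2142 lower to 3201 higher and 5246 lower. After quantile normalization 6 enzymes were higher, with 3718 higher and 4267 lower among all genes. The median difference of the 10 was 0.28, against 0.09 for all genes.

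CS2 at 500 nM gave larger shifts. By the same limma test 7 enzymes were higher (RRM1, RRM2, RRM2B, TYMS, TK1, DCK and SAMHD1), 2 were lower (TK2 and DUT) and DTYMK did not pass. Among all genes 74.1% passed, 49.5% higher and 24.6% lower, and the split of 7405 higher to 3674 lower became 5199 to 5667 after median scaling and 5395 to 5346 after quantile normalization. Treated and control libraries did not overlap for 9 of the 10 enzymes, against 72.2% of all genes. The median difference of the enzymes was 0.69, against 0.20 for all genes. CS1 and CS2 were set against the same 4 DMSO libraries, so their results are not independent of each other.

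The FTO hairpin lowered most of the enzymes. In shFTO against shNS 6 were lower by limma (RRM1, RRM2, TYMS, TK1, DTYMK and DUT), 2 were higher (DCK and SAMHD1), and RRM2B and TK2 did not pass. Of all genes 56.4% passed, 31.9% higher and 24.5% lower, a split of 4776 to 3661 that became 3759 to 4612 after median scaling and 4069 to 4398 after quantile normalization. The libraries did not overlap for any of the 10 enzymes, against 64.7% of all genes. The median difference of the 10 was -0.37, against 0.07 for all genes. The shFTO replicate 3 lay nearer to the shNS libraries than replicates 1 and 2 did for RRM1, RRM2, TYMS, TK1, DTYMK and DUT, but farthest from them for SAMHD1.

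**Figure D2:**
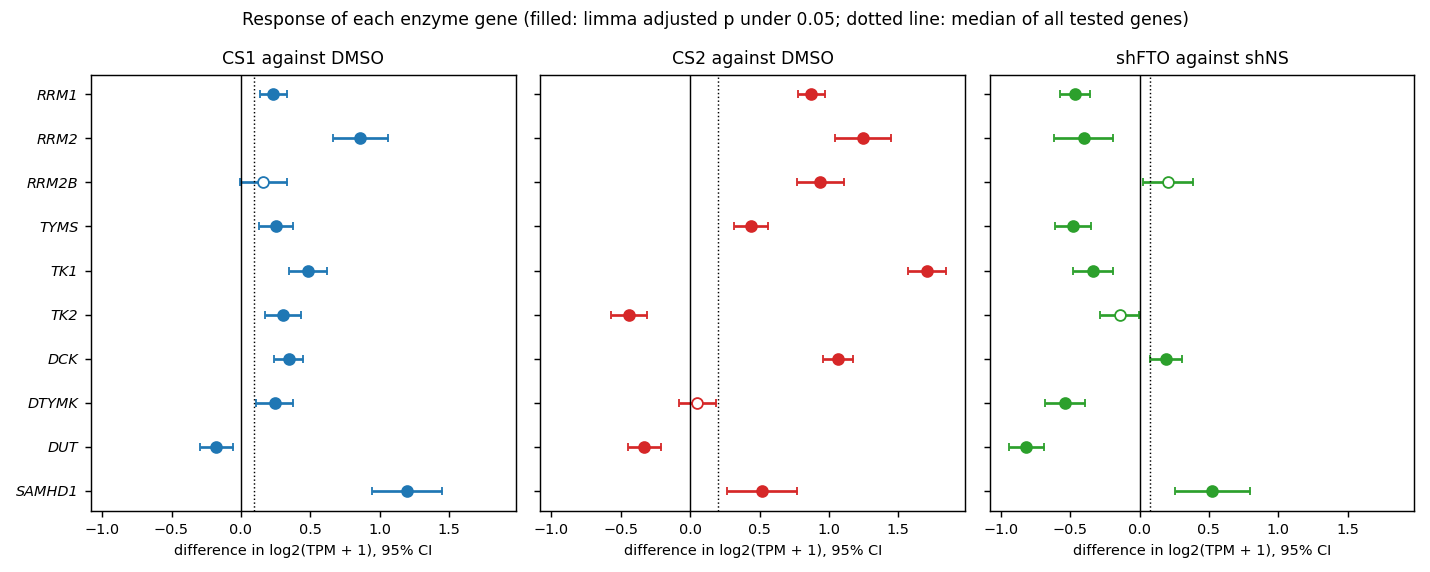
Difference in log2(TPM + 1) between treated and control libraries (horizontal axis) for each enzyme, with 95% confidence intervals from limma; filled dots passed an adjusted p of 0.05, and the dotted line is the median of all tested genes. The reductase subunit RRM2, TYMS and TK1 lie right of 0 in CS1 and CS2 and left of 0 in shFTO, while SAMHD1 lies right of 0 in all 3 comparisons; after median scaling TYMS in CS1 keeps its sign without passing, DTYMK in CS2 changes sign, and so does RRM2B in CS1.

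The ribonucleotide reductase genes lie on 3 chromosomes in GENCODE's annotation of GRCh38, with RRM1 at chr11:4094707-4138876 and RRM2 at chr2:10120698-10131419, both on the plus strand. Their start regions are shown because both genes rose with the compounds and fell with the hairpin. RefSeq windows (GRCh38.p14) from 250 bases before to 50 after a gene start were searched on both strands for CCAAT, for E2F sites in 4 shorter spellings (TTCCCGC besides TTCGCGC, with TTGCCGC besides TTGGCGC) and for their 8-letter forms (TTTCCCGC, TTTCGCGC, TTTGCCGC and TTTGGCGC), which contain the shorter ones. E2F factors are known for switching on S phase genes, and CCAAT is the letter pattern bound by NF-Y. Of all 35116 windows 34.6% held CCAAT, 3.26% held it 3 or more times, 13% held a shorter E2F pattern and 3.31% an 8-letter one. Windows were found for 9 of the 10 enzymes, all but RRM2B, and numbered 14, since some genes had several. The shares are per window, so a gene with several windows has more chances of a match. The cell cycle element TTTGAA was searched too and stood in 15.2% of all windows, once in that of RRM1 and in 2 places in a window of DUT. A window of RRM2 held CCAAT 3 times, and its stretch at chr2:10122603-10122632 (the farthest of them) and chr2:10122619-10122729 is printed with CCAAT in capitals. Another RRM2 window, not printed, held 1 shorter E2F pattern and 1 CCAAT. The RRM1 window held 1 shorter E2F pattern and 1 CCAAT, both in capitals in the stretch at chr11:4094435-4094684. A match describes the letters only.
RRM2 (plus strand, 30 bases): gggcaaggcgcagCCAATgggaagggtcgg
RRM2 (plus strand, overlapping next stretch): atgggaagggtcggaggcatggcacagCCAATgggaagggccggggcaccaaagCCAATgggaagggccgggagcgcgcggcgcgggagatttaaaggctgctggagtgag
RRM1 (plus strand): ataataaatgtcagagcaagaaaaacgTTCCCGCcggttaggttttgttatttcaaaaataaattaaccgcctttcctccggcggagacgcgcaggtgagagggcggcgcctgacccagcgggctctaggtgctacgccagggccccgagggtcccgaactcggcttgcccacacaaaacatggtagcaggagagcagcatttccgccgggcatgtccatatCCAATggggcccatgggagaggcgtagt

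RRM2, the small subunit of cycling cells, was read at 515, 526, 479 and 495 TPM in the DMSO libraries. It stood at 969, 983 and 805 TPM in CS1 and at 1214, 1204 and 1170.4 TPM in CS2. The 3 groups did not overlap, and the lowest CS1 library was far above the highest DMSO library. The difference from DMSO was 0.86 (SE 0.09) for CS1 with limma adjusted p = 2.29e-06 and 1.25 (SE 0.09) for CS2 with limma adjusted p = 9.88e-09. In shNS it was read at 266, 285 and 289 TPM, and in shFTO at 196, 185 and 260 TPM. The shFTO libraries all lay below the shNS libraries, replicate 3 by the smallest margin, and the difference was -0.40 (SE 0.10, limma adjusted p = 0.00309). Leaving out shFTO replicate 3 moved it to -0.55.

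RRM1, the large subunit, was read at 184, 190.5, 174 and 184 TPM in DMSO, at 221, 221 and 205 TPM in CS1 and at 343, 339 and 324 TPM in CS2. All CS1 libraries lay above all DMSO libraries, by less than the distance between CS1 and CS2. The difference from DMSO was 0.23 (SE 0.05, limma adjusted p = 0.000573) in CS1, which median scaling reduced to 0.06 (limma adjusted p = 0.221) and quantile normalization to 0.13, and 0.87 (SE 0.05, limma adjusted p = 1.75e-10) in CS2. With the hairpins, RRM1 was read at 146, 152 and 155 TPM in shNS and at 107, 103 and 118 TPM in shFTO. The groups did not overlap, with a difference of -0.46 (SE 0.05, limma adjusted p = 1.56e-06).

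Relative to RRM1, RRM2 was higher in every compound library than in every DMSO library. RRM2 TPM per RRM1 TPM was 2.80, 2.76, 2.75 and 2.70 in DMSO, 4.38, 4.46 and 3.94 in CS1, and 3.54, 3.55 and 3.61 in CS2. Both compound groups lay above DMSO without overlap, and CS1 lay above CS2. Each of these contrasts with DMSO had an exact two-sided permutation p = 0.0571, or 0.114 adjusted over the 8 quotient tests. The test doubled the smaller tail, so this was its floor for 3 against 4 libraries, where each arrangement has a share of 0.0286. CS2 against CS1 gave an exact permutation p = 0.1, the smallest for 3 against 3 libraries. With this doubling rule none of these contrasts could pass 0.05. In shNS the quotient was 1.82, 1.87 and 1.87, and in shFTO it was 1.83, 1.79 and 2.21, with overlapping groups (exact permutation p = 0.9). Of the shFTO libraries only replicate 3 lay above the shNS range, and replicate 2 lay just below it.

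**Figure D3:**
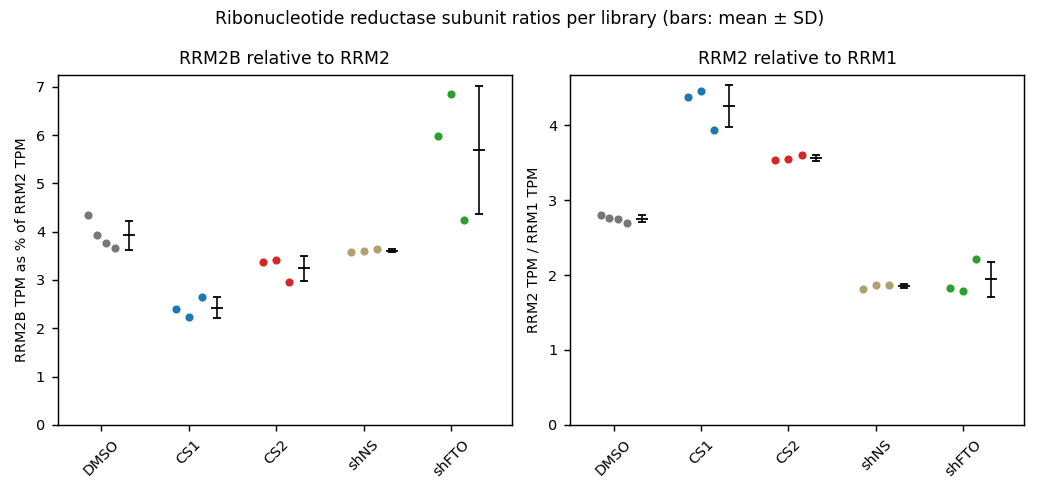
Quotients of small and large reductase subunits in each library by group, with RRM2B TPM as a percentage of RRM2 TPM on the left axis panel and RRM2 TPM divided by RRM1 TPM on the right, and bars for mean ± SD. RRM2B relative to RRM2 is 2.23% to 2.66% in CS1, below all DMSO libraries, and 4.24% to 6.84% in shFTO, above all shNS libraries.

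RRM2B, the alternative small subunit and a known p53 target, lies at chr8:102204502-102239118 on the minus strand of GRCh38. It was read at 22.4, 20.7, 18.1 and 18.1 TPM in DMSO and at 23.2, 22.0 and 21.4 TPM in CS1, which overlap. In CS2 it stood at 40.9, 41.0 and 34.5 TPM, above all DMSO and CS1 libraries. The CS1 difference was 0.16 (95% confidence interval -0.01 to 0.33, limma adjusted p = 0.105), and its sign was lost after median scaling (-0.02) and quantile normalization (-0.00175), whereas it passed without DMSO replicate 1 (0.22, limma adjusted p = 0.0282). The CS2 difference was 0.94 (SE 0.08, limma adjusted p = 3.97e-08). RRM2B was read at 9.52, 10.2 and 10.5 TPM in shNS and at 11.7, 12.7 and 11.01 TPM in shFTO. These groups did not overlap, yet the difference of 0.20 (95% confidence interval 0.02 to 0.39) lay close to the threshold without passing (limma adjusted p = 0.0533). It passed with pseudocounts of 0.1 or 0.5, with a filter at 5 TPM, in a fit of these groups only, with a replicate block (limma adjusted p = 0.0124) and without shFTO replicate 3 (0.25, limma adjusted p = 0.0363).

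Relative to RRM2, RRM2B was lower in the compound libraries and higher in the hairpin libraries than in the matched controls. It amounted to 4.34%, 3.93%, 3.77% and 3.65% of RRM2 in DMSO, to 2.40%, 2.23% and 2.66% in CS1 and to 3.37%, 3.41% and 2.95% in CS2. The compound libraries all lay below the DMSO libraries, with CS1 below CS2 and the exact two-sided permutation p = 0.0571 for each contrast with DMSO and 0.1 between the compounds. In shNS it amounted to 3.58%, 3.60% and 3.65%, and in shFTO to 5.98%, 6.84% and 4.24%. The shFTO libraries all lay above the shNS libraries, a 1.55-fold difference with exact permutation p = 0.1, the smallest possible, and 0.114 adjusted over the 8 tests. RRM2B stayed under 7% of RRM2 in all 16 libraries.

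In the thymidylate route TYMS rose with both compounds on the deposited scale, a call that median scaling removed in CS1, while DUT fell with both. DTYMK passed with CS1 on the deposited scale but not after median scaling or quantile normalization, and all 3 fell with the hairpin. The genes lie on GRCh38 at chr18:657604-673578 (TYMS, plus strand), chr15:48331011-48343373 (DUT, plus strand) and chr2:241675742-241686991 (DTYMK, minus strand). The 8-letter E2F pattern, found in 3.31% of all windows, stood once in the TYMS window. It stood in 2 places in a DUT window, a count that 0.145% of windows reach, while the other DUT windows held none. These matches are printed as 30 bases each with the pattern in capitals (as GCGGGAAA, the reverse complement of TTTCCCGC, or as TTTGGCGC), since the 2 genes differ in their response to the compounds. The positions are chr18:657602-657631 for TYMS, and chr15:48332143-48332172 and chr15:48332159-48332188 for DUT, all on the plus strand of GRCh38.p14 from RefSeq.
TYMS: cgcgggacggccGCGGGAAAaggcgcgcgg
DUT (farther from the start): ggggcggggctgGCGGGAAAtttcggtttt
DUT (nearer to the start): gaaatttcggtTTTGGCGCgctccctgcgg

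TYMS, the target of fluorouracil, was read at 478, 479, 476 and 494 TPM in DMSO, at 582, 589.5 and 551 TPM in CS1 and at 638, 657 and 660.3 TPM in CS2. The groups rose in this order without overlap. The CS1 difference was 0.25 (SE 0.06, limma adjusted p = 0.002), reduced to 0.07 after median scaling (limma adjusted p = 0.289), and the CS2 difference was 0.44 (SE 0.06, limma adjusted p = 6.18e-06), or 0.21 after median scaling (limma adjusted p = 0.00487). In shNS it was read at 325, 337 and 339 TPM and in shFTO at 228, 217 and 275 TPM. The hairpin groups did not overlap, with a difference of -0.48 (SE 0.06, limma adjusted p = 1.09e-05). Exons of TYMS overlap ENOSF1 and TYMSOS on the other strand, and whether counting used strand is not given in the sources used here. ENOSF1 was 27.5 TPM ± 1.19 in DMSO (SD, n = 4) and 19.7 TPM ± 0.668 in CS2 (SD, n = 3), and TYMSOS 5.43 TPM ± 0.505 and 12.1 TPM ± 1.67, so both were small beside TYMS.

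DUT, which removes dUTP before it can enter DNA, was read at 252, 249, 246 and 248 TPM in DMSO, at 219, 221 and 220 TPM in CS1 and at 194, 198 and 200.4 TPM in CS2. The 3 groups fell in this order without overlap, with little spread inside a group. The differences from DMSO were -0.18 (SE 0.05, limma adjusted p = 0.0144) and -0.33 (SE 0.05, limma adjusted p = 5.96e-05), and median scaling made them larger, at -0.35 and -0.56, as quantile normalization did (-0.26 and -0.50). In shNS it was read at 215, 219.7 and 223 TPM and in shFTO at 118, 114 and 143 TPM. This was the largest fall among the 10 enzymes in the hairpin comparison, at -0.82 (SE 0.06, limma adjusted p = 3.21e-08) and a fold of 0.568.

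DTYMK, the kinase that follows TYMS, was read at 39.2, 40.2, 41.0 and 40.8 TPM in DMSO, at 48.0, 49.9 and 45.9 TPM in CS1 and at 38.5, 42.5 and 44.7 TPM in CS2. CS1 stood above DMSO, while CS2 spread across the DMSO range. The CS1 difference was 0.24 (SE 0.06, limma adjusted p = 0.00483), and did not pass after median scaling (0.07, limma adjusted p = 0.412) or quantile normalization (0.11, limma adjusted p = 0.185). The CS2 difference was 0.05 (95% confidence interval -0.08 to 0.19, limma adjusted p = 0.475). It turned to -0.18 after median scaling (limma adjusted p = 0.0233) and -0.16 after quantile normalization (limma adjusted p = 0.0375), so its direction rests on the scaling. In shNS it was read at 27.7, 29.6 and 28.3 TPM and in shFTO at 18.2, 18.1 and 22.0 TPM, without overlap, a difference of -0.53 (SE 0.07, limma adjusted p = 9.04e-06).

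Among the salvage kinases the cytosolic TK1 and DCK rose with both compounds, whereas the mitochondrial TK2 was higher in CS1 and lower in CS2. TK1 lies at chr17:78174075-78187233 on the minus strand, DCK at chr4:70992538-71030914 on the plus strand and TK2 at chr16:66508003-66552544 on the minus strand. TK1 showed the largest rise of the 10 enzymes with CS2 on the deposited scale and after median scaling (after quantile normalization RRM2 rose more, by 1.69 against 1.55), so its start region is printed. A RefSeq window of TK1 held CCAAT in 2 places and a shorter E2F pattern in 1, each on the opposite strand to the gene and so written as ATTGG and GCGGGAA in capitals. The 30-base stretches lie at chr17:78187113-78187142, chr17:78187082-78187111 and chr17:78187047-78187076 of GRCh38.p14 and read along the minus strand. The DCK window held 3 shorter E2F patterns, a count that 0.214% of all windows reach, and 1 of them lay within an 8-letter one. The TK2 window and the other TK1 window held none of the patterns. CCAAT also stood in 2 places in the windows of SAMHD1 and DTYMK, and 10.8% of all windows held it 2 or more times.
TK1 (farther CCAAT): cggccgggcgctgATTGGccccatggcggc
TK1 (nearer CCAAT): gggccggctcgtgATTGGccagcacgccgt
TK1 (E2F pattern): aaagcggtcggcGCGGGAAccaggggctta

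TK1, the thymidine kinase of S phase, was read at 84.7, 86.4, 83.2 and 86.5 TPM in DMSO. It stood at 119.8, 117 and 121 TPM in CS1 and at 273, 283 and 285 TPM in CS2. The 3 groups were far apart relative to their spread. The difference was 0.48 (SE 0.06, limma adjusted p = 1.47e-05) for CS1 and 1.71 (SE 0.06, limma adjusted p = 4.07e-12) for CS2, a fold of 3.26, and the CS1 value was 0.31 after median scaling (limma adjusted p = 0.00161). In shNS it was read at 83.1, 83.6 and 82.3 TPM and in shFTO at 62.2, 58.7 and 77.03 TPM. The hairpin groups did not overlap, although shFTO replicate 3 came near shNS, and the difference of -0.34 (SE 0.07, limma adjusted p = 0.000614) became -0.45 without that library.

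DCK, which activates cytarabine and other nucleoside drugs, was read at 63.8, 64.5, 60.8 and 62.0 TPM in DMSO, at 85.1, 81.5 and 73.5 TPM in CS1 and at 139, 131 and 126 TPM in CS2. It rose in the same order as RRM2 and TK1, without overlap. The CS1 difference was 0.34 (SE 0.05, limma adjusted p = 4.2e-05) and the CS2 difference 1.06 (SE 0.05, limma adjusted p = 5.15e-11), a fold of 2.09, and median scaling reduced the former to 0.17 without ending the call. Unlike TK1, DCK was higher with the hairpin, being read at 49.2, 52.3 and 53.1 TPM in shNS and at 56.4, 60.9 and 59.7 TPM in shFTO. All shFTO libraries lay above shNS, a difference of 0.19 (SE 0.05, limma adjusted p = 0.00665) that was 0.11 after median scaling (limma adjusted p = 0.0260). Exons of DCK overlap MOB1B on the same strand, which averaged 14.7 TPM ± 0.278 in shNS and 19.9 TPM ± 1.92 in shFTO (SD, n = 3 each).

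TK2, the mitochondrial thymidine kinase, was low throughout, at 4.86, 4.55, 5.13 and 4.98 TPM in DMSO, at 6.78, 6.10 and 5.91 TPM in CS1 and at 3.25, 3.12 and 3.62 TPM in CS2. It was higher than DMSO in CS1 and lower in CS2, with no overlap of the 3 groups. The CS1 difference of 0.30 (SE 0.06, limma adjusted p = 0.000752) did not pass after median scaling (0.13, limma adjusted p = 0.128) or quantile normalization (0.15, limma adjusted p = 0.112). The CS2 difference was -0.44 (SE 0.06, limma adjusted p = 9.98e-06), or -0.67 after median scaling. TK2 was read at 7.41, 7.31 and 7.59 TPM in shNS and at 6.82, 6.71 and 6.39 TPM in shFTO, a difference of -0.14 (95% confidence interval -0.28 to -0.00243) that did not pass (limma adjusted p = 0.0773). It passed after median scaling (-0.23, limma adjusted p = 0.0145) and quantile normalization (-0.32, limma adjusted p = 0.00296).

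SAMHD1, the triphosphohydrolase that lowers deoxynucleotide pools, lies at chr20:36889773-36951901 on the minus strand and was higher in all 3 treated groups. It was read at 5.30, 5.74, 5.25 and 5.0 TPM in DMSO, at 14.9, 16.2 and 10.1 TPM in CS1 and at 8.0, 8.22 and 7.89 TPM in CS2. Unlike RRM2 and TK1 it was highest in CS1, where replicate 3 lay well below the other libraries but still above CS2. The difference was 1.2 (SE 0.12, limma adjusted p = 8.75e-07) in CS1 and 0.52 (SE 0.12, limma adjusted p = 0.00109) in CS2, where it was 0.29 after median scaling (limma adjusted p = 0.0202) as after quantile normalization (0.0164). In shNS it was read at 6.41, 6.04 and 7.40 TPM and in shFTO at 9.06, 9.66 and 11.1 TPM. These did not overlap, with a difference of 0.52 (SE 0.13, limma adjusted p = 0.00257). Exons of SAMHD1 overlap TLDC2 on the other strand, which averaged at most 1.997 TPM in any group.

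The libraries of the compounds were also compared directly, at doses that differ (500 nM CS2 against 100 nM CS1), so dose and compound cannot be told apart. All 10 enzymes passed by limma, 6 higher in CS2 and 4 lower, while 66.6% of all genes passed, 40.4% higher and 26.2% lower. None of the 10 overlapped between the groups, against 67.6% of all genes. RRM1 (0.64), RRM2B (0.78), DCK (0.72) and TK1 (1.22) were higher in CS2, as were RRM2 (0.39) and TYMS (0.18). The order of these values depends on the scaling, since quantile normalization gave RRM2 0.87, above RRM1 (0.60), RRM2B (0.70) and DCK (0.61), and moved DUT to -0.24. TK2 (-0.75) and SAMHD1 (-0.68) were lower in CS2, with limma adjusted p = 1.27e-07 and 0.000248. The remaining lower calls, DTYMK (-0.19, limma adjusted p = 0.0218) and DUT (-0.15, limma adjusted p = 0.0307), were less secure. DTYMK no longer passed in 3 and DUT in 5 of 6 fits with 1 library left out, and without CS1 replicate 1, CS1 replicate 2 or CS2 replicate 1 only 2 enzymes were called lower. TYMS passed with limma adjusted p = 0.0172 but not after median scaling (0.0732) or without CS1 replicate 3 (0.0697).

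Whether a compound and the hairpin acted alike on these genes was tested as the difference of their responses, each taken against its own control. For CS1 minus shFTO, 8 enzymes were higher and 0 lower by limma, against 49.4% of all genes passing, 31% higher and 18.3% lower. RRM2 differed most, by 1.26 (SE 0.14), and DUT differed by 0.64 (SE 0.08) although it fell in both. RRM2B (-0.04, 95% confidence interval -0.29 to 0.21, limma adjusted p = 0.786) and DCK (0.15, 95% confidence interval -0.01 to 0.31, limma adjusted p = 0.105) did not pass, and DCK depended on the setting: it turned to -0.00516 after quantile normalization and passed with a replicate block (0.14, limma adjusted p = 0.0270) or without CS1 replicate 3 (0.21, limma adjusted p = 0.0171). For CS2 minus shFTO, 8 enzymes were higher and TK2 was lower (-0.30, limma adjusted p = 0.00912), against 63.4% of all genes passing, 39.8% higher and 23.7% lower. TK1 differed by 2.04 (SE 0.09) and RRM2 by 1.65 (SE 0.14), an order that quantile normalization turned (TK1 1.85, RRM2 2.03). It also moved the DUT difference from 0.49 to 0.20. The SAMHD1 responses to CS2 and to the hairpin differed by -0.01 (95% confidence interval -0.38 to 0.36, limma adjusted p = 0.976), an interval that also holds sizeable differences.

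Of 28 other genes of deoxynucleotide and thymidylate metabolism, 27 were expressed enough to test. By limma 10 were higher and 5 lower in CS1, 13 higher and 8 lower in CS2, and 7 higher and 14 lower in shFTO. After median scaling the counts were 8 higher and 11 lower in CS1, 10 and 11 in CS2, and 4 and 16 in shFTO, so the direction of the list in the compound groups rests on the scaling. Their median differences on the deposited scale were 0.09, 0.13 and -0.17, against 0.09, 0.20 and 0.07 for all genes. The counts of this and the following lists are read against the shares passing among all genes, 37.5% higher and 14.3% lower in CS1, 49.5% and 24.6% in CS2, and 31.9% and 24.5% in shFTO. Every rise or fall of a gene named from these lists passed an adjusted p of 0.05 by limma. CDA, which deaminates cytidine and deoxycytidine, was higher in all 3, from 20.3 TPM ± 1.97 in DMSO to 41.7 TPM ± 0.859 in CS1 (1.01, limma adjusted p = 1.81e-08) and 62.4 TPM ± 3.63 in CS2 (1.58, limma adjusted p = 2.21e-11). In the hairpin libraries CDA averaged 28.4 TPM ± 1.01 with shNS and 50.5 TPM ± 3.88 with shFTO (0.81, limma adjusted p = 3.55e-07). SHMT1, which supplies one-carbon units for TYMS, rose from 46.1 TPM ± 0.632 in DMSO to 69.3 TPM ± 5.33 in CS1 (0.58, limma adjusted p = 1.11e-07) and 102 TPM ± 3.77 in CS2 (1.13, limma adjusted p = 1.31e-11). NT5C2, a nucleotidase, rose to 178 TPM ± 12.4 in CS1 from 112 TPM ± 0.924, and NUDT1, which clears oxidised nucleotides, rose to 169.9 TPM ± 4.04 in CS2 from 94.0 TPM ± 2.99. In shFTO the folate enzyme MTHFD1 fell from 168 TPM ± 3.52 to 90.8 TPM ± 15.9 (-0.90, limma adjusted p = 2.42e-07), while CMPK1, a pyrimidine monophosphate kinase, rose from 97.1 TPM ± 2.33 to 163 TPM ± 7.05 (0.74, limma adjusted p = 3.15e-09). Between the compounds, TYMP, which breaks thymidine down, was 13.0 TPM ± 0.661 in CS1 and 2.94 TPM ± 0.592 in CS2, and the mitochondrial nucleotidase NT5M was 4.18 TPM ± 0.439 and 0.777 TPM ± 0.202.

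RRM1, RRM2, TYMS and TK1 are textbook S phase transcripts, so cell cycle lists were counted beside them. Among 24 S phase genes known as E2F targets, 18 were higher and 2 lower in CS2 (median 0.43) and 8 were higher and 4 lower in CS1 (median 0.02), while 0 were higher and 24 lower in shFTO (median -0.70). After median scaling the counts were 13 and 4 in CS2, 4 and 9 in CS1, and 0 and 24 in shFTO. The fall in shFTO and the preponderance of rises in CS2 thus held. The CS1 counts were near the shares among all genes on both scales. They turned as all genes did, from 5605 higher and 2142 lower to 3201 higher and 5246 lower. In the direct comparison 18 were higher in CS2 than in CS1 and 2 lower. In CS2 E2F1 rose from 50.1 TPM ± 4.26 to 192 TPM ± 1.96, CCNE2 from 49.2 TPM ± 0.506 to 260.0 TPM ± 2.63 and CDC6 from 66.0 TPM ± 1.14 to 183 TPM ± 1.14. In shFTO UNG, which cuts uracil out of DNA, fell from 73.4 TPM ± 3.49 to 18.3 TPM ± 5.49, MCM3 from 373 TPM ± 7.53 to 166 TPM ± 32.0 and CDC45 from 59.7 TPM ± 0.469 to 31.1 TPM ± 4.78. In CS1 CCNE2 rose to 104.5 TPM ± 9.47 and RPA2 from 170.3 TPM ± 3.64 to 218 TPM ± 4.57. Of 18 genes of G2 and M phase, 13 were higher and 2 lower in CS2, 7 higher and 5 lower in CS1, and 1 higher and 9 lower in shFTO. These became 6 and 5, 3 and 10, and 1 and 13 after median scaling. The mitotic kinase gene CDK1 was 146 TPM ± 4.92 in DMSO, 190.5 TPM ± 6.68 in CS1 and 312 TPM ± 6.63 in CS2. The part of these cell cycle shifts in the enzyme results was not tested.

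Genes of p53 and of interferon, which are known regulators of RRM2B and SAMHD1, were counted too. Of 20 p53 targets 11 were higher and 0 lower in CS1, 14 higher and 2 lower in CS2, and 8 higher and 6 lower in shFTO, the last near the shares among all genes. After median scaling the counts of p53 targets were 6 and 3, 10 and 3, and 8 and 6. CDKN1A, the p21 cell cycle inhibitor, rose from 6.56 TPM ± 0.376 in DMSO to 53.8 TPM ± 9.35 in CS1 and 101 TPM ± 15.4 in CS2, whereas the repair gene XPC fell from 31.1 TPM ± 0.217 to 9.37 TPM ± 0.967 in CS2. GDF15 rose from 0.287 TPM ± 0.194 in DMSO to 20.9 TPM ± 1.63 in CS1. Of 13 tested interferon response genes 12 were higher and 0 lower in CS1 (median 1.34), 11 higher and 1 lower in CS2 (median 0.93), and 7 higher and 1 lower in shFTO (median 0.14). Median scaling left 12 higher and 1 lower, 11 and 2, and 6 and 2. IFIT2 was 1.44 TPM ± 0.213 in DMSO, 27.3 TPM ± 7.25 in CS1 and 4.02 TPM ± 0.291 in CS2. IFI6 rose from 58.8 TPM ± 2.05 to 148 TPM ± 10.5 in CS1 and 203 TPM ± 10.3 in CS2, and with the hairpin from 149.5 TPM ± 9.14 to 306 TPM ± 2.80 in shFTO. Between the compounds 3 of the 13 were higher in CS2 and 7 lower. The part of these shifts in the RRM2B and SAMHD1 results was not tested.

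**Figure D4:**
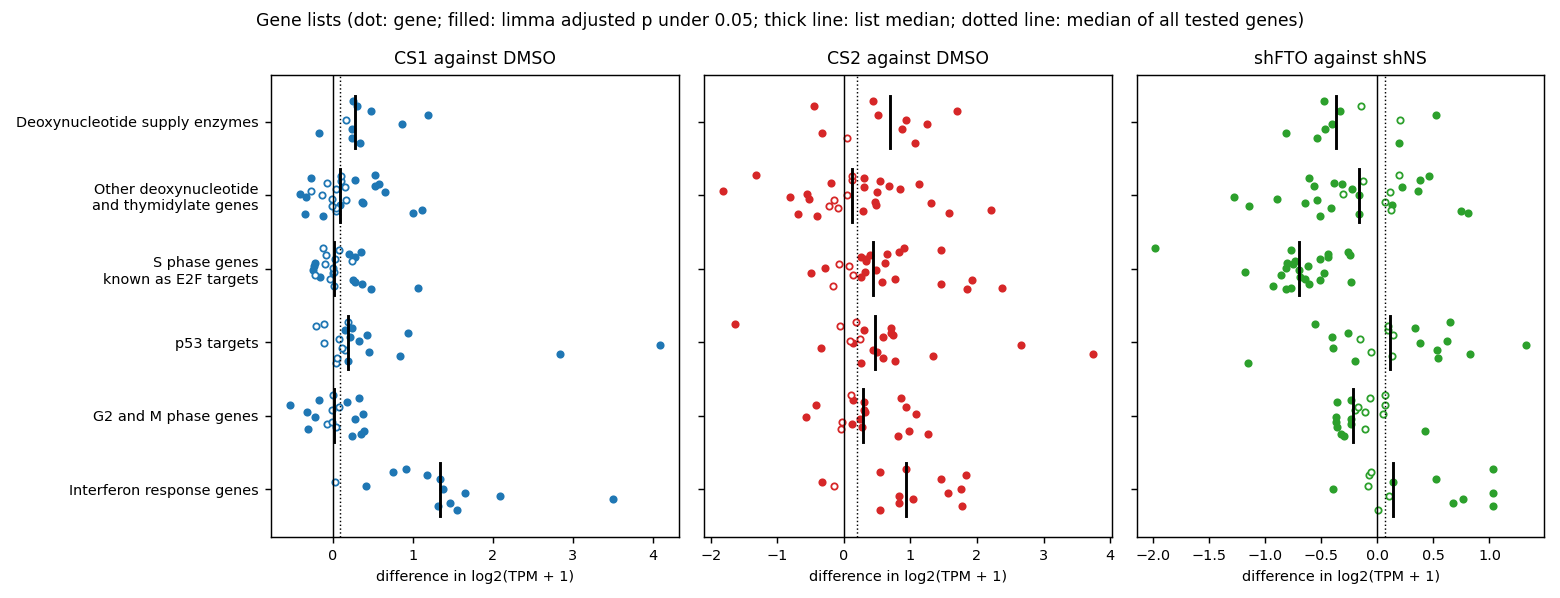
Difference in log2(TPM + 1) (horizontal axis) for each gene of the 6 lists in CS1, CS2 and shFTO against their controls, with dots for genes, filled where limma's adjusted p was under 0.05, thick lines for list medians and a dotted line for the median of all genes. The enzymes have medians of 0.28, 0.69 and -0.37, and all 24 S phase genes lie left of 0 in shFTO.

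The genes whose profiles were most like those of 4 of the enzymes were ranked by Pearson's r of log2(TPM + 1) over the 16 libraries, among 10717 genes. These libraries share groups and treatments, so r is given as a description. For RRM2 they were FBXO5 (0.995), ZNF611 (0.995) and CENPN (0.994), for TYMS GINS3 (0.997), PPP4R1 (0.995) and DNAJC9 (0.995), and for RRM2B SIRT1 (0.994), SLC12A2 (0.992) and SPAG1 (0.991). SAMHD1 had no equally close match, its nearest being VPS45 (0.960), CRACR2B (0.959) and ST3GAL2 (0.949). FBXO5, for instance, averaged 91.8 TPM ± 1.81 in DMSO, 128 TPM ± 10.3 in CS1, 169.6 TPM ± 2.73 in CS2, 53.3 TPM ± 2.43 in shNS and 44.8 TPM ± 4.85 in shFTO. Among the enzymes themselves, RRM2 and TYMS had r = 0.970 over the 16 libraries, TK1 and DCK 0.947, RRM2B and TK2 -0.894, and RRM2 and SAMHD1 0.234.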

How the data were processed

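Poly(A) RNA-seq of 16 NOMO-1 libraries was analysed from the table the authors deposited, whose values are TPM, a unit inferred from columns of nearly equal sum. RSEM 1.2.31 and the build GRCh38 are named in the submitters' processing notes. The aligner, the annotation and the strand setting were not given in the sources used here. All 16 columns were used, each matched to a sample by name, and no pair of libraries was identical. Depth is unknown, so precision rests on replicates.

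The 14951 genes that reached 1 TPM in 3 or more libraries were tested on log2(TPM + 1) with limma 3.58.1 in R 4.3.3, with 1 mean per group over all 16 libraries and a mean-variance trend, two-sided, adjusted by Benjamini-Hochberg over all genes of a comparison with a threshold of 0.05. Quotients of subunits were tested by exact permutation of libraries in Python 3.11.15 with scipy 1.17.1. The fit was tested on simulated data. Alternatives were other pseudocounts (0.1 and 0.5), a filter at 5 TPM, no filter, median scaling, quantile normalization, fits to the compared groups only, without a variance trend, with a replicate block, and with each library left out.

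The enzymes and the gene lists were chosen with earlier results of these data known. Besides the 10 enzymes and FTO, the rule named the 3 genes per list that had the lowest adjusted p in a comparison; not all are printed. Profile likeness was ranked among genes with a mean of at least 5 TPM.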

Additional observations from a re-analysis of the deposited data

Results flagged for a closer look

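TYMS in DMSO had a sample far from the others: replicate 4 was read at 494.15 TPM, while the other 3 libraries lay between 475.90 and 478.72 TPM. Its gap took 0.8455 of the range, above Dixon's 95% critical value for 4 samples. Of 12 items tested this way, all in DMSO, the only group of 4, chance alone flags about 1 in 20.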

How the results depend on the processing

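Of 540 refits of the 60 enzyme results under other settings, 518 kept direction and call, 7 lost the call, 9 gained it and 6 changed sign; of 520 with 1 library left out the numbers were 501, 9, 3 and 7. The cause was not tested. In CS1 against DMSO the enzymes higher fell from 8 to 4 with median scaling, all genes moved to 3201 higher and 5246 lower, and to 3718 and 4267 with quantile normalization; in CS2 5667 genes were lower with median scaling. Signs changed for RRM2B in CS1 (-0.0161 with median scaling, -0.001746 with quantile normalization), for DTYMK in CS2 (-0.18 and -0.16), for DCK in CS1 minus shFTO (-0.005158 with quantile normalization) and for SAMHD1 in CS2 minus shFTO (0.00575 with a pseudocount of 0.1). With 1 library left out, RRM2B in CS1 minus shFTO ranged from -0.08696 to 0.01496, SAMHD1 in CS2 minus shFTO from -0.07948 to 0.06919, the log2 quotient of RRM2 to RRM1 in shFTO against shNS from -0.03237 (without shFTO replicate 3) to 0.1185, and the enzymes lower in CS2 against CS1 from 2 to 4. RRM2B in shFTO was called with pseudocounts of 0.1 and 0.5, a filter at 5 TPM, only the groups compared, and without shFTO replicate 3 (limma adjusted p between 0.0363 and 0.0492). With a replicate block 58 of the 60 results were unchanged in call, and RRM2B in shFTO (limma adjusted p = 0.0124) and DCK in CS1 minus shFTO (0.0270) gained it. Same-numbered libraries of 2 groups correlated between -0.009253 and 0.2193, and differently numbered ones between -0.1787 and 0.1362. For CS1 with CS2 these ranges were 0.08531 to 0.2193 and -0.1787 to 0.08994. The main fit took no pairs, and whether same-numbered libraries share an effect was not tested. Depth limits nothing that could be computed, since TPM hold no counts.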
